A study of Rattus norvegicus with 16 samples.

Results

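The genes described here are 8 genes whose hippocampal RNA level, 15 days after an infusion of iron into the amygdala, lay outside the levels of every other animal of the study: Dok3, Slc15a4, Rrad and Bcl2l1 were higher on that day, and Egf, Dus2, Zfp26 and Rhobtb1 were lower. They are 8 of the 26565 genes measured, and each was chosen because its 4 Fe day 15 arrays stood apart from the other 12. The difference of day 15 from the other groups is therefore given as a description, with no test. For each gene 1 probe was used, the probe with the highest mean signal over the 16 arrays among those whose RefSeq accession belongs to that gene.

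RNA was measured in the right hippocampus of 16 male Wistar rats on Agilent 1-colour arrays, 1 array for each rat and 4 rats in each of 4 groups. A cannula was placed at the right amygdala at 5 weeks of age, and 1.0 µl of fluid was later infused through it. The Fe day 5, Fe day 15 and Fe day 30 rats received 100 mM FeCl3 in saline of pH 2.2, and the tissue was taken on the day in the name. The control rats received saline of pH 2.2 without iron and were all collected at day 15. Iron, age and time elapsed all differ between the controls and the rats of Fe day 5 or Fe day 30, and these cannot be told apart. Ferric chloride in the amygdala gives rats recurrent limbic seizures and is used to model posttraumatic epilepsy. The series text says that seizures recurred in the iron-treated rats, that none were seen in controls, and that seizure frequency was not measured. The days are separate animals, so a course over time is a comparison of groups.

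The 8 genes do not form one pathway. Dok3 and Slc15a4 are known from mouse immune cells: Dok3 is an adaptor protein that dampens signalling from immune receptors, and Slc15a4 is a histidine and peptide transporter of lysosomes that endosomal Toll-like receptors need. Rrad is a small GTPase of the RGK group that holds back high-voltage calcium channels, and Bcl2l1 encodes Bcl-xL, which blocks the mitochondrial route to cell death. Egf is a ligand of the EGF receptor, Dus2 makes dihydrouridine in transfer RNA, Rhobtb1 is an atypical GTPase that binds the ubiquitin ligase scaffold Cullin 3, and Zfp26 encodes a zinc finger protein.

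Levels are the log2 processed signal minus the 75th percentile of its array, so that a negative level is a signal below that percentile. All 8 probes were well above background on 16 of 16 arrays. Levels are compared within a gene and not between genes, since probes differ in how bright they are. In a bulk tissue sample, fewer cells of a type and less RNA per cell cannot be told apart.

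Over all genes, 122 (0.459%) had 4 Fe day 15 arrays outside the 12 others, 63 higher (0.237%) and 59 lower (0.222%). Of these, 25 higher and 27 lower genes carried a symbol. The same pattern held for 19 genes (0.0715%) at Fe day 5, 24 genes (0.0903%) at Fe day 30 and 212 genes (0.798%) in the controls. Standing apart was thus rarer at the other 2 Fe days than at day 15 and more frequent in the controls. In pairs of groups, 9.83% of all genes had no overlap between Fe day 15 and control, 3.71% none between Fe day 15 and Fe day 5 and 3.29% none between Fe day 30 and Fe day 15, against 8 of 8 by choice here. In the limma fit of all 16 arrays, 0 genes were called for Fe day 15 against control at an adjusted p under 0.05, while 3055 genes (11.5%) had an unadjusted p under 0.05. The fit also called 0 genes (0%) for Fe day 15 against Fe day 5, with 1912 at an unadjusted p under 0.05, and 0 for Fe day 30 against Fe day 15, with 1723. For Fe day 15 against the mean of the other 3 groups 1 gene was called (0.00376%), a probe without a symbol.

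Dok3 had the widest separation of the 4 higher genes. Its Fe day 15 levels were -1.50, -1.64, -1.63 and -1.54, against -2.32, -2.12, -2.79 and -2.31 at Fe day 5. They were -2.68, -2.52, -1.89 and -2.02 at Fe day 30, and -2.42, -2.48, -2.66 and -2.66 in the controls. All 4 day 15 hippocampi were high and close together, the controls were uniformly low, and the Fe day 30 rats split into 2 low and 2 intermediate animals. The low ones, replicates 1 and 2, lay at position 2 of their array slides. The intermediate ones, replicates 3 and 4, lay at position 4, on slides that also held Fe day 15 replicates 1 and 2. Animal, slide and position cannot be told apart in this split. The mean of Fe day 15 was 0.98 ± 0.17 above control on the log2 scale (standard error of the limma fit), which is 1.97-fold. It was 0.81 above Fe day 5, and Fe day 30 was 0.70 below it. The gap between the lowest day 15 array and the highest of the other 12 was 0.25, the second widest among all genes that stood apart. The RefSeq promoter of Dok3 is shown to set beside that of Slc15a4, the other gene of immune signalling that was high on day 15. It lies at chr17:9115325-9115624 on the plus strand of GRCr8 and runs from 250 bases before to 50 after the annotated start.

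Dok3 promoter: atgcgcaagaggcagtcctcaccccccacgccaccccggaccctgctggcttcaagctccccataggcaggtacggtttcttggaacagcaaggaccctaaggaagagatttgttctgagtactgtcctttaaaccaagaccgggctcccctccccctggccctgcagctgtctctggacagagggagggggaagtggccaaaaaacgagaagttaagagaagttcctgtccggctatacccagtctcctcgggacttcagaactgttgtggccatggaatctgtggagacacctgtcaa

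None of the 9 short motifs searched on both strands was found in the Dok3 window, which says only that these letters are not there. The motifs were the cyclic AMP response element TGACGTCA and its first part TGACG, the AP-1 element TGANTCA, the GC box GGGCGG, the CCAAT box CCAAT, the TATA box TATAAA, the E-box CACGTG, a glucocorticoid response element and a heat shock element. The short element TGACG lies inside TGACGTCA, and the last 2 motifs were written with open positions.

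Slc15a4 showed the tightest levels of the 8 genes. At Fe day 15 the levels were 1.65, 1.81, 1.78 and 1.56, against 1.42, 1.34, 1.32 and 1.41 at Fe day 5. The Fe day 30 levels were 1.38, 1.30, 1.33 and 1.40, and the control levels 1.34, 1.42, 1.40 and 1.33. The other 3 groups lay on top of each other, and the day 15 rats stood above all of them. The difference was modest in size, 0.33 ± 0.065 over control (1.26-fold), 0.33 over Fe day 5, and 0.35 lower at Fe day 30 than at Fe day 15. The pooled within-group SD was 0.072, at the 2.8th percentile of all genes, and the gap to the nearest other array was 0.14. The Slc15a4 promoter, at chr12:34698725-34699024 on the plus strand of GRCr8, holds 1 GC box and 1 CCAAT box, in capitals.

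Slc15a4 promoter: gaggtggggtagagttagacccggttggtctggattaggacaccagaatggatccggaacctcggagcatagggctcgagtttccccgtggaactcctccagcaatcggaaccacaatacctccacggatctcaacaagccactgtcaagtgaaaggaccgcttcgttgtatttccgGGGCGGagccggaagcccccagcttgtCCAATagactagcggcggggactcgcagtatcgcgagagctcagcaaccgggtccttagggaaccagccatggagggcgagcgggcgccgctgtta

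The GC box begins at position -73 and the CCAAT box at position -46 from the annotated start. These are common letters in such windows: 33.1% of the 33469 RefSeq promoters hold a GC box and 37.5% a CCAAT box on either strand.

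Rrad was high at Fe day 15, and its Fe day 30 levels lay between those of Fe day 15 and control. It had levels of -1.71, -1.68, -1.47 and -1.46 at Fe day 15, against -1.90, -1.77, -2.06 and -2.01 at Fe day 5. Fe day 30 rats had -1.83, -1.81, -1.71 and -1.81, and control rats -2.05, -2.09, -2.26 and -2.04. The lowest day 15 rat exceeded the highest Fe day 30 rat by only 0.0029, the narrowest separation of the 8 genes, and every Fe day 30 rat lay above every control. Fe day 15 was 0.53 ± 0.084 over control (1.44-fold) and 0.35 over Fe day 5, and Fe day 30 was 0.21 below Fe day 15. Fe day 30 was itself 0.32 ± 0.084 over control, 59.9% of the day 15 difference.

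Bcl2l1, the gene of Bcl-xL, was higher at Fe day 15 on every rat's array. Its levels at Fe day 15 were 2.39, 2.31, 2.30 and 2.21, against 2.04, 1.96, 1.92 and 2.09 at Fe day 5. At Fe day 30 they were 1.93, 1.92, 2.19 and 2.05, and in controls 1.92, 1.83, 1.86 and 1.92. Day 15 was high in all 4 rats, controls were lowest, and Fe day 30 replicate 3, at 2.19, came within 0.018 of the lowest day 15 rat. Fe day 15 exceeded control by 0.42 ± 0.072 (1.34-fold) and Fe day 5 by 0.30, and Fe day 30 was 0.28 below Fe day 15.

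The array carries 3 further probes for Bcl2l1, with another RefSeq transcript accession than the probe used above. Probe A_42_P623909 had -1.66, -1.84, -1.76 and -2.15 at Fe day 15, against -2.09, -2.30, -2.24 and -2.25 in controls. Here 3 of the 4 day 15 rats were high and replicate 4 fell among the other groups. On that probe Fe day 15 lay 0.32 over the mean of the other 3 groups, close to 0.33 on the probe used above. Probe A_44_P548065 gave 0.27 with overlap, and probe A_43_P12577 gave 0.11 but was well above background on 0 of 16 arrays. The day 15 direction was thus the same on the 3 probes with signal, and the complete separation was seen on 1 of them.

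**Figure D1:**
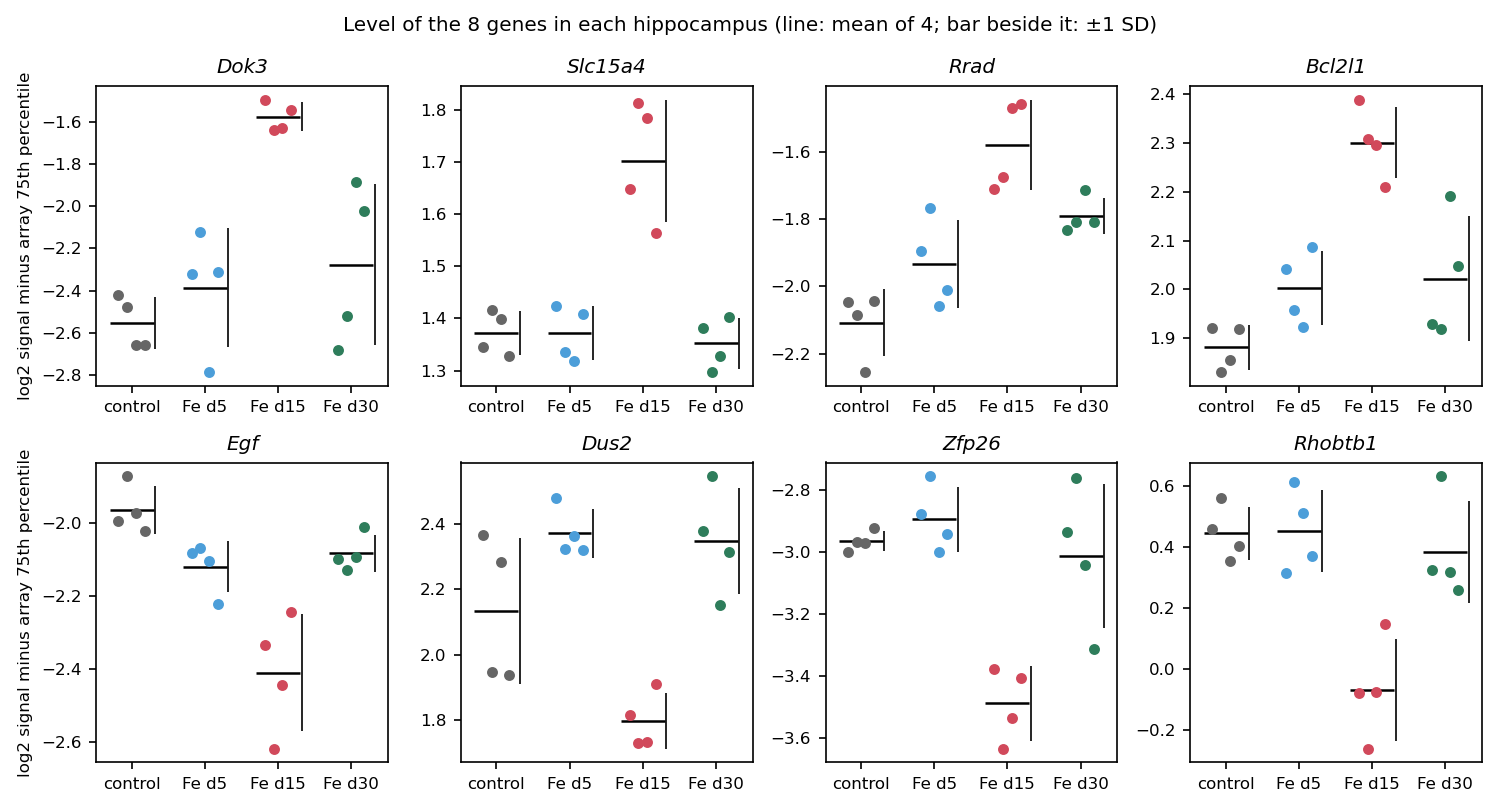
Level of each gene in each rat, as log2 signal minus the 75th percentile of the array (vertical axis, own scale in each panel), for the 4 groups in order of time with the controls at the left. Points are rats, the horizontal line is the mean of 4 and the bar beside it 1 SD on either side; the 4 Fe day 15 points lie above all others for Dok3, Slc15a4, Rrad and Bcl2l1 and below all others for Egf, Dus2, Zfp26 and Rhobtb1.

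Egf, the receptor ligand, was lower at Fe day 15 and was measured on 10 spots per array. Fe day 15 rats had -2.33, -2.62, -2.44 and -2.24, against -2.08, -2.07, -2.10 and -2.22 at Fe day 5. Fe day 30 rats had -2.10, -2.13, -2.09 and -2.01, and controls -1.99, -1.87, -1.97 and -2.02. Replicate 2 of day 15 was lowest, and the highest day 15 rat lay 0.022 below the lowest Fe day 5 rat. All 4 Fe day 5 rats also lay below all 4 controls. Fe day 15 was 0.44 ± 0.078 below control, as a log2 difference of -0.44 (1.36-fold lower), and -0.29 against Fe day 5, and Fe day 30 was 0.33 above Fe day 15.

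Dus2 stood out by its course: Fe day 15 lay below the control mean, whereas Fe day 5 and Fe day 30 lay above it. Levels at Fe day 15 were 1.81, 1.73, 1.73 and 1.91, against 2.48, 2.33, 2.36 and 2.32 at Fe day 5. Fe day 30 gave 2.38, 2.55, 2.15 and 2.31, and the controls 2.37, 1.95, 2.28 and 1.94. The controls fell into 2 pairs, with replicates 2 and 4 only just above the day 15 rats and replicates 1 and 3 among the other Fe rats. The log2 difference of Fe day 15 from control was -0.34 ± 0.11 (1.26-fold lower), and it was wider against Fe day 5, at -0.58. Fe day 30 exceeded Fe day 15 by 0.55.

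The second Dus2 probe, A_44_P110606, also had its lowest levels at Fe day 15. It had -1.59, -1.56, -1.75 and -1.58 at Fe day 15, against -0.81, -1.52, -0.88 and -1.42 in controls 1 to 4. Control replicates 2 and 4 were again the low pair, and the day 15 rats again lay below all 12 others. Fe day 15 was -0.67 from the mean of the other 3 groups on this probe, against -0.49 on the probe used above. Both probes carry 1 RefSeq accession and read the same RNA samples, so they are not independent animals.

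**Figure D2:**
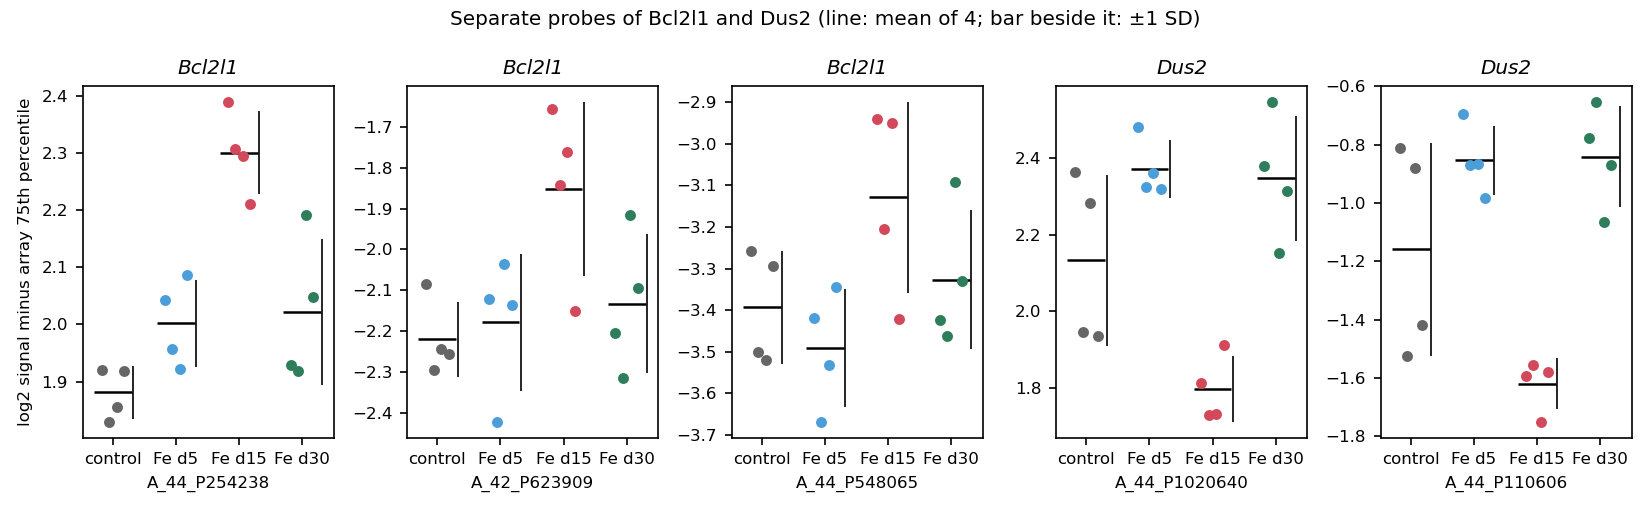
Levels on the 3 Bcl2l1 probes and the 2 Dus2 probes that were well above background on all 16 arrays (log2 signal minus the 75th percentile of the array), by group; points are rats, the line is the mean of 4, the bar 1 SD on either side. Complete separation of Fe day 15 is seen on 1 Bcl2l1 probe and on both Dus2 probes, and control replicates 2 and 4 are low on both Dus2 probes.

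The Dus2 promoter is shown because it is the only one of the 7 genes with a RefSeq promoter whose window holds the complete cyclic AMP response element, in capitals, which 1.83% of the 33469 promoters contain. The window lies at chr19:50821344-50821643 on the plus strand of GRCr8, and the element begins 2 bases past the annotated start.

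Dus2 promoter: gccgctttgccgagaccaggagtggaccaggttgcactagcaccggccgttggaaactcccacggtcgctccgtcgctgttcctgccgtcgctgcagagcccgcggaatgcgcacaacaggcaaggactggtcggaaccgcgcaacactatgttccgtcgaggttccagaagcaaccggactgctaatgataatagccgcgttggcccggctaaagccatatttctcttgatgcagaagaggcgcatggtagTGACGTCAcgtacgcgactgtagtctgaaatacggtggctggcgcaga

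Zfp26, a zinc finger gene, was lower at Fe day 15 and had tightly grouped controls. It had -3.38, -3.63, -3.54 and -3.40 at Fe day 15, against -2.88, -2.76, -3.00 and -2.94 at Fe day 5. Fe day 30 rats had -2.94, -2.76, -3.04 and -3.31, and controls -3.00, -2.97, -2.97 and -2.92. Day 15 was low in all 4 rats, and Fe day 30 replicate 4 was the nearest of the others, 0.062 above the highest day 15 rat. The log2 difference was -0.52 ± 0.10 against control (1.44-fold lower) and -0.59 against Fe day 5, and Fe day 30 was 0.47 above Fe day 15.

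Rhobtb1 had the widest gap among the 4 lower genes. At Fe day 15 it had -0.08, -0.26, -0.08 and 0.15, against 0.32, 0.61, 0.51 and 0.37 at Fe day 5. The levels were 0.32, 0.63, 0.32 and 0.26 at Fe day 30 and 0.46, 0.56, 0.36 and 0.40 in controls. The day 15 rats were low, with replicate 4 the least so, and the other 3 groups overlapped throughout. Fe day 15 was -0.51 ± 0.10 from control (1.43-fold lower) and -0.52 from Fe day 5, Fe day 30 was 0.45 above Fe day 15, and the gap to the nearest other rat was 0.11. Its RefSeq promoter, at chr20:19402008-19402307 on the minus strand of GRCr8, is shown for its E-box, which 6.42% of promoters hold. From left to right the capitals mark a GC box in reverse complement, the E-box and a CCAAT box.

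Rhobtb1 promoter: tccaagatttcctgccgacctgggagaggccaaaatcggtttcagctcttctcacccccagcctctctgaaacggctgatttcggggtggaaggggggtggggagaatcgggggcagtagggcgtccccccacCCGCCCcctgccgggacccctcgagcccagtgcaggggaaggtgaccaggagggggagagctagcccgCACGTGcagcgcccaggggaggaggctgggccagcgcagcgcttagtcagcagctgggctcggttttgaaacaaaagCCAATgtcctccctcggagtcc

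No motif was shared by all 7 genes with a RefSeq promoter, and a match in a window is a description of its letters. Rrad had no entry and is named only.

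The plot of day 15 differences shows how the genes differ in shape. For Slc15a4, Zfp26 and Rhobtb1 the distances to control, Fe day 5 and Fe day 30 were close to each other. For Dok3, Rrad, Bcl2l1 and Egf the distance to control was the longest, since Fe day 5 and Fe day 30 means lay between control and Fe day 15. For Dus2 it was the shortest.

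**Figure D3:**
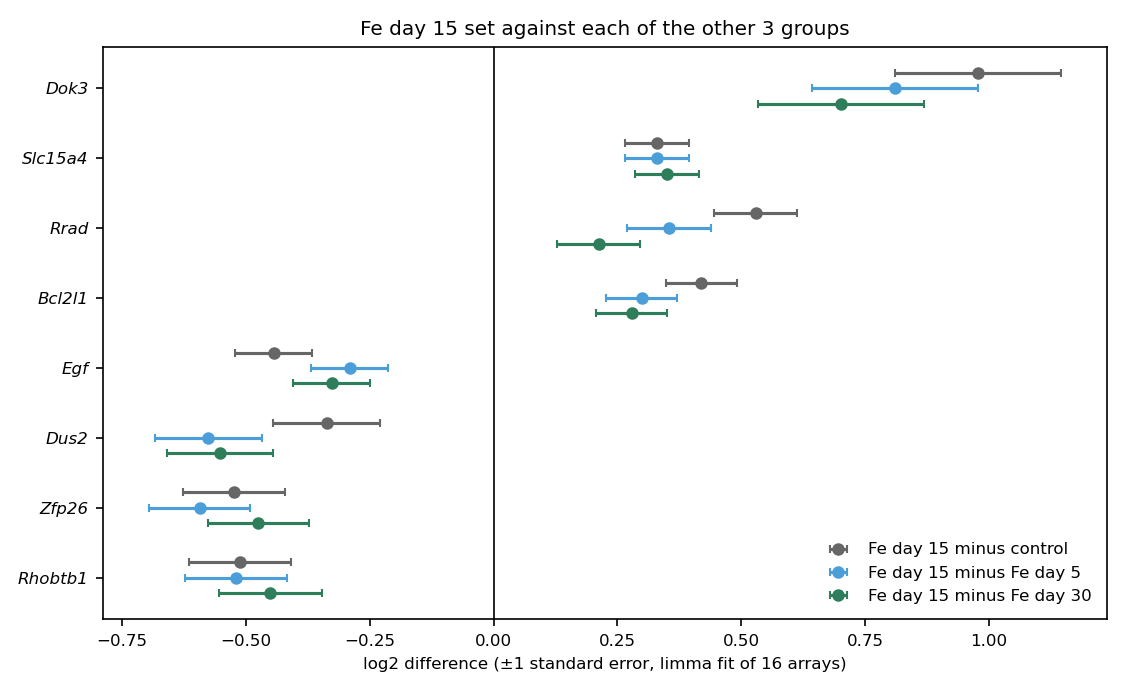
Log2 difference of Fe day 15 from control, Fe day 5 and Fe day 30 (horizontal axis) for the 8 genes, with bars of 1 standard error from the limma fit of 16 arrays. All 24 differences of the chosen genes lie on the side by which they were chosen, Dok3 furthest out at 0.98 over control and Rrad nearest to 0 against Fe day 30.

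The groups that the choice did not set against each other can be tested, although genes picked for day 15 tend to lie close elsewhere. For Fe day 5 against control the limma fit called 0 of the 8 genes and 0 of all genes (0%), with adjusted p of 0.478 to 1 among the 8. At an unadjusted p under 0.05 there was 1 of the 8, Dus2, with 10.3% of all genes. Dus2 was 0.24 ± 0.11 higher at Fe day 5 than in controls (adjusted p = 0.478, limma). Egf and Bcl2l1 showed no overlap between Fe day 5 and control, 2 of 8 genes, against 7.84% of all genes. For Bcl2l1 the lowest Fe day 5 rat, at 1.922, was barely above the highest control, at 1.9212. On the Bcl2l1 probes A_42_P623909 and A_44_P548065 these groups overlapped. Egf differed by -0.15 (95% interval -0.32 to 0.013) and Bcl2l1 by 0.12 (-0.033 to 0.27), and neither passed the test.

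For Fe day 30 against control limma called 0 of the 8 and 2 of all genes (0.00753%), and the 8 had adjusted p of 0.452 to 0.946. Rrad, at 0.32 ± 0.084 with all 4 Fe day 30 rats above all 4 controls, was the 1 gene with an unadjusted p under 0.05 (0.00211, adjusted p = 0.452), against 7.77% of all genes. It was also the 1 gene of the 8 without overlap there, against 6.25% of all genes. The intervals of the other differences included 0: Dok3 at 0.28 (95% interval -0.081 to 0.64) and Bcl2l1 at 0.14 (-0.014 to 0.29) had intervals that reached well above 0, and Slc15a4 at -0.019 had one of -0.16 to 0.12. Dus2 was at 0.22 (-0.015 to 0.45) over control.

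For Fe day 30 against Fe day 5 limma called 0 of the 8 and 0 of all genes, and every adjusted p among the 8 was 1. No gene of the 8 had an unadjusted p under 0.05 (2.96% of all genes), and 0 of 8 were free of overlap (1.52% of all genes). A p above the threshold does not show that the levels of the 2 groups were equal.

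The day 15 arrays shared glass slides with other groups, which allows a comparison within a slide. Replicates 1 to 4 of Fe day 15 lay on slides with control 2 and Fe day 30 replicate 3, control 3 and Fe day 30 replicate 4, control 4, and Fe day 5 replicate 1, which gives 6 pairs. The sign of these differences is fixed by the choice of the genes, so 6 of 6 had one sign in all 8 genes (8.06% of all genes show this), and only their sizes add to it. The differences were 0.38 to 1.03 for Dok3, 0.14 to 0.46 for Slc15a4, 0.0029 to 0.58 for Rrad and 0.17 to 0.56 for Bcl2l1. They were -0.64 to -0.16 for Egf, -0.59 to -0.13 for Dus2, -0.66 to -0.32 for Zfp26 and -0.64 to -0.17 for Rhobtb1. All Fe day 15 arrays lay at position 2 of their slides and all controls at position 1, and with position as a block the difference from control was 0.88 ± 0.24 for Dok3, 0.28 ± 0.13 for Slc15a4, 0.63 ± 0.17 for Rrad and 0.31 ± 0.12 for Bcl2l1. It was -0.31 ± 0.15 for Egf, -0.27 ± 0.20 for Dus2, -0.46 ± 0.17 for Zfp26 and -0.40 ± 0.20 for Rhobtb1. Only Fe day 5 had arrays at both positions 1 and 2, and replicate 4 was its only array at position 2. The offset between the positions thus rests on that 1 array in all these values. The part of position in them was not tested further.

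**Figure D4:**
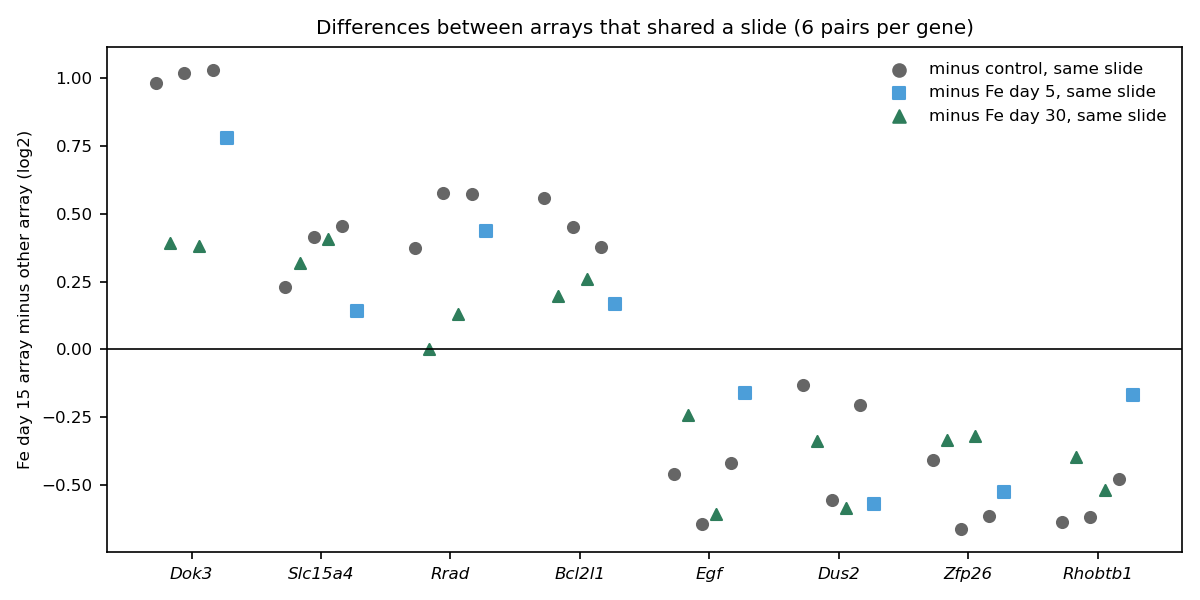
Log2 level of a Fe day 15 array minus that of another array on the same slide (vertical axis) for each gene, 6 pairs per gene; circles are pairs with a control, the square the pair with Fe day 5 and triangles pairs with Fe day 30. All pairs lie above 0 for Dok3, Slc15a4, Rrad and Bcl2l1, the lowest for Rrad at 0.0029, and below 0 for Egf, Dus2, Zfp26 and Rhobtb1.

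Markers of other cells differed between the same arrays. Of the measured genes, 7 of 7 neuron, 6 of 6 CA1 and subiculum and 3 of 4 dentate gyrus genes were above background on every array. So were 4 of 4 striated muscle and 11 of 11 meninges and fibroblast genes, and detection alone does not identify the tissue. Measured genes had already passed a background filter, and of the neuron and dentate gyrus lists Rbfox3, Dsp and Lct gave no value. The microglia score, the median over 14 genes of the log2 level minus the control mean, was 1.06 in Fe day 15 replicate 4 and -0.20, -0.19 and -0.13 in replicates 1 to 3, against -0.056 to 0.12 in controls. The summed linear level of those genes was 36.8 to 88.7 at Fe day 15, against 40.3 to 43.3 in controls, and 14 of 14 were above background on all arrays. Dok3, a gene of immune cells, was chosen for being high in all 4 day 15 rats, whatever their microglia score. Without replicate 4 it was 0.97 above control. Over the 16 arrays, which share their groups, Dok3 and the microglia score correlated at r = 0.155. The part of microglia in the Dok3 level was not tested.

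**Figure D5:**
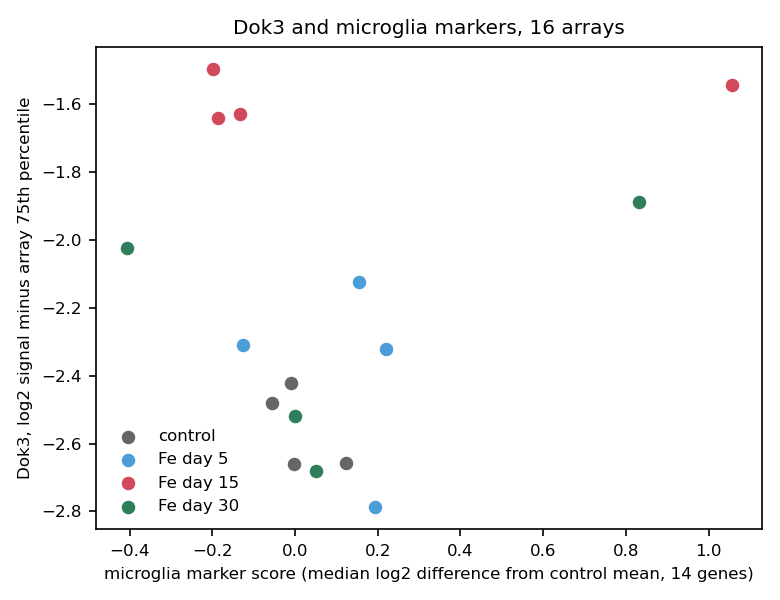
Dok3 level (vertical axis, log2 signal minus the 75th percentile of the array) against the microglia marker score (horizontal axis, median log2 difference of 14 genes from their control mean) in 16 rats. The 4 Fe day 15 rats lie at the top of the Dok3 axis, for which the gene was chosen, and their microglia scores run from -0.20 to 1.06.

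Scores of blood, region, oligodendrocyte and endothelial markers are given beside the 8 genes for the same arrays. The neutrophil and blood score was 0.64 to 1.48 at Fe day 15 and 0.87 to 2.03 at Fe day 5, both above the control range of -0.36 to 0.39. It rests on 5 of 8 listed genes, with summed levels of 1.45 to 4.05 at Fe day 15 and 1.17 to 1.59 in controls, with 6 of the 8 matched to a probe and Hba1, Ngp and Mpo giving no value. The CA3 score, on 4 of 5 listed genes, was -1.08 to -0.069 at Fe day 15, against -0.24 to 0.28 in controls, with summed levels of 14.1 to 35.7 at Fe day 15 and 31.9 to 44.7 in controls, so that both ranges overlapped. The dentate gyrus score, on 4 of 6, was -1.16 to -0.24 at Fe day 15 and -0.47 to -0.22 at Fe day 30, both below the control range of -0.12 to 0.075, with summed levels of 6.93 to 11.95 at Fe day 15 and 11.96 to 18.0 in controls. All 8 oligodendrocyte genes had a higher mean at Fe day 15 than in controls, but the score of -0.081 to 0.63 overlapped that of controls, -0.30 to 0.16, with summed levels of 215.8 to 320.9 at Fe day 15 and 200.8 to 252.2 in controls. Of all lists, CA3 had the strongest correlation with Dok3 (r = -0.647 over 16 arrays) and Bcl2l1 (-0.603), and the dentate gyrus with Rrad (-0.608). For Egf the strongest was the blood score (-0.454) and for Rhobtb1 the oligodendrocyte score (-0.473). For Slc15a4 (-0.461), Dus2 (0.439) and Zfp26 (0.431) it was the endothelial score. That score was -0.12 to 0.20 at Fe day 15, within the control range of -0.20 to 0.22. Some were near ties: Rhobtb1 was at 0.459 with the endothelial score, and Zfp26 at -0.414 and Egf at -0.444 with the oligodendrocyte score. All these correlations include the day 15 arrays that chose the genes. The part of these cells and regions in the 8 genes was not tested.

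The arrays Fe day 5 replicates 2 and 3 and Fe day 30 replicate 3 were high in choroid plexus or meninges markers, with scores up to 7.38 and 4.55. Leaving them out cannot end the separation of day 15 or change the differences from control, since neither Fe day 15 nor control holds those arrays. Fe day 30 replicate 3 was also the array nearest to the Fe day 15 levels of Dok3, Rrad and Bcl2l1. Its microglia score was 0.83. Fe day 30 replicate 4, the other intermediate rat for Dok3, had a microglia score of -0.41. The part of these markers in those levels was not tested. Without Fe day 15 replicate 4, the array high in microglia markers, the differences from control were 0.38 for Slc15a4, 0.49 for Rrad, 0.45 for Bcl2l1, -0.50 for Egf, -0.37 for Dus2, -0.55 for Zfp26 and -0.58 for Rhobtb1.

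Some of the 8 genes followed each other closely over the arrays. Dok3 and Bcl2l1 correlated at r = 0.918 over 16 arrays, and Zfp26 and Rhobtb1 at 0.914. Both values include the day 15 arrays that chose the genes. Once group means were removed, the 12 pairs of genes chosen in the same direction had a median r of 0.21 (range -0.24 to 0.66), and the 16 pairs of opposite direction a median of -0.24 (range -0.70 to 0.40).

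The genes most like each of the 8, by Pearson's r over the 16 arrays, included others of the 8. These correlations also include the day 15 arrays that chose the 8 genes. By ranks (Spearman) they ran from 0.547 for Egf with Rhobtb1 to 0.891 for Dok3 with Pcyt1a. After Bcl2l1, Dok3 was followed by Cfap141 (r = 0.875) and Pcyt1a (0.870), an enzyme of phosphatidylcholine synthesis. Slc15a4 was closest to Swt1 (0.886), Gorasp1 (0.870), a Golgi stacking protein, and Chordc1 (0.864), a co-chaperone of Hsp90. Rrad was closest to Mical2 (0.850), an actin oxidase, Dok3 (0.832) and Serpinf2 (0.831), the inhibitor of plasmin. Mical2 and Serpinf2 themselves stood apart at day 15, 0.89 and 1.11 over control. Bcl2l1 was followed after Dok3 by Cct2 (0.886), a subunit of the chaperonin that folds actin and tubulin, and Klf15 (0.883), a transcription factor induced by glucocorticoids.

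In the lower set, Egf was closest to Utp25 (0.863), Rhobtb1 (0.836) and B3galt4 (0.812), an enzyme of ganglioside synthesis. Dus2 was close to Pigw (0.868), of GPI anchor synthesis, and to Tipin (0.810), of the replication fork. Zfp26 was followed after Rhobtb1 by Homez (0.896) and Abraxas1 (0.878), a subunit of a BRCA1 complex, and Rhobtb1 after Zfp26 by Utp25 (0.869) and Nme4 (0.863), a mitochondrial nucleoside diphosphate kinase. Of these, Utp25 and Pigw also lay apart at day 15, at -0.36 and -0.27 from control.

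Seen among all genes with a symbol that stood apart at day 15, the 8 genes did not all have the widest gaps. Dok3 (0.25) and Slc15a4 (0.14) led the higher genes, followed by Mrm2 (0.12), a mitochondrial rRNA methyltransferase, Dnajc9 (0.090), a histone co-chaperone, and Prpf19 (0.066), a splicing factor. Among the lower genes Vom1r90, a vomeronasal receptor gene, had the widest gap (0.61) but was above background on 10 of 16 arrays only. Rhobtb1 (0.11) was next, then Fhl4 (0.11), Marchf7 (0.091) and Zfp605l1 (0.070). At the threshold of the rule itself, Rab3d (0.00050) and Raly (0.00098) lay just inside, and Gpam (-4.7e-06) and Gpr85 (-0.00050) just outside.

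Relatives and partners of the 8 genes were looked at through 8 lists, 1 for each gene. Of 190 listed genes, 143 were measured, and 0 of them lay apart at day 15. The limma fit called 0 in any of the 6 comparisons. For Fe day 15 against control 12 of the 143 (8.39%) had an unadjusted p under 0.05, 4 higher and 8 lower, against 11.5% of all genes. The lowest adjusted p was 0.146.

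The median of all genes was 0.0014 for Fe day 15 against control. The DOK adaptors and their immune partners had a median log2 difference of 0.025 from control at Fe day 15, with 10 of 17 higher and 0 at an unadjusted p under 0.05. The largest values were Dok5 at 0.66 ± 0.39 and Cd22, an inhibitory B cell receptor, at -0.53 ± 0.97. The SLC15 transporters with endosomal Toll-like receptor genes had a median of -0.077, with 6 of 14 higher. There Tlr7, a receptor of single-stranded RNA, was at 0.44 ± 0.24 and Irf7, an interferon regulator, at 0.37 ± 0.58. Tlr9 was lower, at -0.36 ± 0.29.

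Calcium channel genes around Rrad lay mostly lower: 13 of 15 RGK and high-voltage calcium channel genes were below control at Fe day 15, with a median of -0.18. Medians were -0.22 at Fe day 5 and -0.19 at Fe day 30, all against the same controls. Rem2, another RGK GTPase, was at -0.56 ± 0.30 and Cacna1a, the P/Q-type channel pore, at -0.47 ± 0.20, and neither passed the test. Cacna2d2 was instead higher, at 0.46 ± 0.38. The BCL2 family had 12 of 21 genes higher at Fe day 15 and a median of 0.0047, with Bik at 0.32 ± 0.43. Bok, a pro-death relative of Bax that is also 1 of the 4 measured CA3 markers, was at -0.74 ± 0.29 there, -0.77 at Fe day 5 and -0.62 at Fe day 30 against the same controls, without passing the test at day 15 (adjusted p = 0.376, limma).

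The EGF family had 11 of 16 genes higher at Fe day 15, with a median of 0.058. Nrg1, an ErbB ligand, was at 0.65 ± 0.26, Areg, another EGF receptor ligand, at 0.56 ± 0.67, and Spry2, a feedback inhibitor, at -0.39 ± 0.16. Enzymes of tRNA modification had a median of -0.014 with 7 of 20 higher, and Trmt6, of the m1A methyltransferase, had the lowest p of all listed genes at -0.37 ± 0.078 (adjusted p = 0.146, limma). Trmt11 was at -0.23 ± 0.090 and Nsun6 at 0.22 ± 0.13. Relatives and Cullin 3 partners of Rhobtb1 had a median of 0.015 with 10 of 19 higher. The largest values were the small GTPases Rnd1 at 0.58 ± 0.25, Rnd2 at 0.32 ± 0.14 and Rnd3 at -0.31 ± 0.20. The KRAB repression genes set beside Zfp26 had a median of -0.047 with 7 of 22 higher. Zfp386 was at -0.32 ± 0.093 and Dnmt3a at 0.21 ± 0.16.

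The separation of some of the 8 genes changed with the processing. With normexp background correction 5 of 8 stood apart, Egf, Rrad and Zfp26 then overlapping other groups, and with the 75th percentile taken over probes detected on all arrays 5 of 8 did, without Dus2, Egf and Rrad. Quantile normalization left 6 apart, without Bcl2l1 and Dus2, and median centring 7, without Bcl2l1. The sign of the day 15 difference from control held for all 8 genes in every setting run. Where only rats or groups were left out or arrays were weighted, the choice of the genes fixed that sign in advance. Changing the background filter, keeping marked spots or adding a replicate block left these differences as they were.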

How the data were processed

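Per the labels' protocols, Cy3-labelled RNA of 16 hippocampi was hybridised to 1-colour arrays. Agilent Feature Extraction 9.5 read the scans, per the submitters' processing notes. The deposited processed signal is, per the file headers, a background-corrected linear intensity of each spot. The authors' deposited series table holds the same intensity values.

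Each array held 43379 transcript spots. The log2 processed signal minus the 75th percentile of the array was used. Spots marked as non-uniform or outliers were left out, and replicate spots averaged. A probe was kept where every array of some group had it well above background (30548 probes), 1 per gene, which left 26565 genes, 9588 with a symbol from a RefSeq table on GRCr8. The 75th percentile signal was 553.4 to 924.5 and 74.2% to 81.6% of probes were above background. The number of arrays limits the precision.

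Groups were compared with limma 3.58.1 in R 4.3.3 in 1 model of 16 arrays (12 residual degrees of freedom), two-sided, with Benjamini-Hochberg adjustment over all genes and a threshold of 0.05. The procedure was tested on simulated data. The alternative normexp correction used the deposited median intensity of spot and background (offset 50), since a mean intensity column is not used here. The 8 genes, the family lists and the markers were chosen with earlier results of these data known. Named besides the 8 genes are the 3 most correlated genes of each, the 5 widest gaps in each direction and the 3 largest day 15 differences of a list, a few of them printed here, and 1 correlated gene is not reported here. Motif shares are over 33469 RefSeq promoters. Replicate numbers did not pair the rats: deviations from group means of same-numbered arrays correlated at -0.411 to 0.387 (24 pairs, 5 over 0.1).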

Additional observations from a re-analysis of the deposited data

Results flagged for a closer look

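Dus2 lay on opposite sides of the control mean on different days. Its mean at Fe day 15 was -0.337 from the control mean on the log2 scale, with all 4 rats below that mean, against 0.239 at Fe day 5, with all 4 rats above it. The same opposition held between Fe day 15, at -0.337, and Fe day 30, at 0.215, where again every rat lay above the control mean. The difference between these shifts was not tested, since day 15 chose the gene, and the control mean itself lies between a low and a high pair of rats.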

How the results depend on the processing

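All 460 recomputed day 15 differences of the 8 genes kept their sign (0 changed). Where only rats or groups were left out or arrays were weighted, the choice of the genes fixed that sign in advance. Changing the background filter or adding a replicate block left the differences as they were. Keeping marked spots changed only Egf against the mean of the other groups, from -0.353 to -0.355. Part of the 460 thus could not move. Of the 460, 9 moved by 1 SD or more. With normexp Rrad was at 0.41, Egf at -0.33 and Zfp26 at -0.34 from control. Against the mean of the other groups, normexp gave -0.24 for Egf and -0.31 for Zfp26. With a position block Egf was at -0.31 and Bcl2l1 at 0.31 from control. Other Bcl2l1 probes gave 0.26 and 0.035 from control. Outside normexp (5) and the percentile over detected probes (5), 6 to 8 genes stood apart, which leaving out a rat cannot lower. All genes apart at day 15 were 70 with normexp, 354 without the 3 choroid-rich arrays and 128 to 497 with 1 rat left out, 256, 245, 255 and 497 without Fe day 15 replicates 1 to 4 and 214 without Fe day 30 replicate 3.

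Counts of called genes depended on the fit. Fe day 5 against control had 1 without the background filter and 0 with any rat left out. Fe day 15 against control had 1 without the filter, 184 with array weights, 15 with a position block, 1 with the replicate block, 2 with only its groups, 1 without the 3 arrays, and 0 to 10 with 1 rat left out, 10 without Fe day 15 replicate 4. Fe day 30 against control had 8 with quantile normalization, 9 with median centring, 25 with weights, 17 by position, and 0 with a slide block, with only its groups or without the 3 arrays, and 0 to 9 with 1 rat left out, 9 without Fe day 5 replicate 4. Fe day 15 against Fe day 5 had 2 with weights, 22 by position, and 0 to 13 with 1 rat left out, 13 without Fe day 15 replicate 4. Fe day 30 against Fe day 15 had 10 by position, and Fe day 30 against Fe day 5 had 26 by position and 1 with only its groups, both 0 with any rat left out. Day 15 against the other groups' mean had 4 with quantile normalization, 2 above background on all arrays, 61 with weights, 19 by position, 4 without the 3 arrays, 0 with normexp, median centring, no filter, a slide block or the replicate block, and 0 to 39 with 1 rat left out, 39 without Fe day 15 replicate 4. The cause was not tested, and in the counts by position the offset between positions 1 and 2 rests on Fe day 5 replicate 4 alone. The replicate block changed no other count by over 1.5 times.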
